A study of Mus musculus with 56 samples.

Results

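The data on 10 genes of the NF-κB system were drawn from 56 lists of ChIP-seq peaks from mouse bone marrow-derived macrophages (BMDMs). They were the 5 genes for the NF-κB subunits, Nfkb1, Nfkb2, Rel, Rela and Relb, and 5 genes grouped here as feedback inhibitors, Nfkbia, Nfkbie, Nfkbiz, Bcl3 and Tnfaip3. A peak was taken as a member's when the deposited annotation named that gene as the one with the closest start site, whichever the distance. This gave 3475 of the 1610519 peaks in all lists, or 0.216%. All BMDMs came from wild-type C57BL/6 mice of 8 to 12 weeks of age and had been differentiated for 6 days in medium with L929 supernatant. In the 1 hr IL-4 experiment, BMDMs without treatment (ctrl) were compared with BMDMs given IL-4 at 20 ng/ml for 1 hr, with antibodies to the lineage factor PU.1, the acetyltransferase p300, the histone deacetylases HDAC1 to HDAC3, the histone mark H3K27Ac, and RNAPII phosphorylated on serine 5 (RNAPII-pS5) or serine 2 (RNAPII-pS2). In the pretreatment experiment, BMDMs received no IL-4 or IL-4 at 20 ng/ml for 24 hr and then no LPS or LPS at 100 ng/ml for 1 hr (the study's methods give the LPS dose in nM), with antibodies to p65 and to both forms of RNAPII. Of its 4 groups, ctrl/ctrl had neither agent, ctrl/LPS had LPS alone, and IL-4 PT/ctrl and IL-4 PT/LPS were pretreated (PT) with IL-4 and then left without or given LPS. Each group of each antibody held 2 samples, numbered as replicates in the labels. The chromatin was from whole cultures, so fewer cells that carry a factor and less of the factor per cell cannot be told apart.

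NF-κB dimers are held in the cytoplasm of resting macrophages by IκB proteins. When LPS engages TLR4, the IKK kinase marks the IκB proteins for destruction and the dimers, of which p65 with p50 is the classical form, enter the nucleus and bind κB sites. Among the genes they switch on are those of the IκB proteins and of the deubiquitinase A20, which end the response. The subunits are p65 (Rela), RelB (Relb) and c-Rel (Rel), which carry an activation domain, and p50 and p52, which are cut from the products of Nfkb1 and Nfkb2. IκBα (Nfkbia) and IκBε (Nfkbie) retain dimers in the cytoplasm, IκBζ (Nfkbiz) and Bcl-3 (Bcl3) act on p50 and p52 dimers in the nucleus, and A20 is the product of Tnfaip3.

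The lists held 8440 to 71027 peaks. Of 10 macrophage marker symbols, among them an old and a new symbol of the same gene, 6 to 8 had a peak in each list. At most 4 of 6 did for T cells, 3 of 4 for B cells, 3 of 4 for neutrophils, 4 of 4 for fibroblasts and 2 of 3 for mast cells. These counts include peaks at any distance. With a promoter peak there were 0 to 6 of the macrophage markers and at most 1 of each other type. The p300 list of ctrl replicate 1 held 44787 peaks with a median score of 11, while the other p300 lists held 66710 to 69360 peaks with medians of 18.2 to 19.2, so p300 values are given with and without it. The peak names in the 4 lists of RNAPII-pS2 after 1 hr of IL-4 or none carry the opposite treatment to the sample labels, and no direction was read from them. The HDAC3 antibody has the catalogue number of the H3K27Ac antibody in the labels and in the study's ChIP protocol but a number of its own in the study's list of reagents, and its target was taken as labelled.

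The κB consensus, searched by its name as the 10-base NF-κB motif on both strands, was found in promoters of 6 of the 7 members that had a RefSeq promoter (GRCm38.p6). Promoters of all genes, each from 250 bases before to 50 after the start, held it in 4.51% of 32851 cases. A match is a description of the letters, not evidence that a dimer bound there. The following 30-base stretches show 1 site of each of these 6 promoters, on the strand of the gene, with the matching letters in capitals and positions counted from the start site. They are shown because those of Nfkbia, Nfkbie, Rel, Nfkb2 and Tnfaip3 lie within p65 regions described further on, while that of Bcl3 lies in none. No RefSeq promoter was at hand for Nfkb1, Nfkbiz and Relb.
Nfkbia, chr12:55492657-55492686, minus strand, bases -29 to -20: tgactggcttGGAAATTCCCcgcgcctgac
Nfkbie, chr17:45555584-45555613, plus strand, bases -106 to -97: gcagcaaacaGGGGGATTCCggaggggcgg
Rel, chr11:23771042-23771071, minus strand, bases -92 to -82: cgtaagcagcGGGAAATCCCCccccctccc
Nfkb2, chr19:46304688-46304717, plus strand, bases -39 to -29: ggatcgtcacGGGAATTCCCCccctcgggg
Tnfaip3, chr10:19015403-19015432, minus strand, bases -12 to -3: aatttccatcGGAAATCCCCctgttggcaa
Bcl3, chr7:19822734-19822763, minus strand, bases 2 to 11: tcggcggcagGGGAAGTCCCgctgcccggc

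The p65 regions away from start sites differed most between samples with and without LPS. Beyond 1000 bp of a start site the summed p65 score of the members went from 601.2 and 605.6 in ctrl/ctrl to 2045.5 and 2102.3 in ctrl/LPS, and within 1000 bp from 542.9 and 572.2 to 714.6 and 761.0. From the distal regions described further on, 6 are shown as 160-base windows at their centres, on the plus strand of mm10, with letters that match the κB consensus on either strand in capitals. The 4 windows with a match lie in introns, in Nfkb1, Rel and Tnfaip3, and the 2 without a match, in an intron of Bcl3 and between genes near Tnfaip3, bound p65 after LPS as well. The 6 were chosen with their values known and are not a sample of the distal regions, of which 22 of 118 held a match. That of Nfkb1 at 20800 bp scored higher in all LPS samples than in any without, though its rise was called only after IL-4. That of Tnfaip3 at 2496 bp fell with LPS.
Nfkb1, chr3:135670667-135670826, 20800 bp from the start site: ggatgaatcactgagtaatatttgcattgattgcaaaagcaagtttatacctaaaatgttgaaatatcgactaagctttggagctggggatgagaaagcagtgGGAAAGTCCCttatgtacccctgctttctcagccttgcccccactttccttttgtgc
Nfkb1, chr3:135640304-135640463, 51163 bp from the start site: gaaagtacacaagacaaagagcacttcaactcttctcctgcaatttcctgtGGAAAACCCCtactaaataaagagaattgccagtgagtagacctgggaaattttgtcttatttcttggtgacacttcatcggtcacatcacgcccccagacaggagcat
Rel, chr11:23754352-23754511, 16538 bp from the start site: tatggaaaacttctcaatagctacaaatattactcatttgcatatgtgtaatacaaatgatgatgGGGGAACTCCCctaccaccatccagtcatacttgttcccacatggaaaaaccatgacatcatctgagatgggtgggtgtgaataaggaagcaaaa
Tnfaip3, chr10:19009387-19009546, 2496 bp from the start site: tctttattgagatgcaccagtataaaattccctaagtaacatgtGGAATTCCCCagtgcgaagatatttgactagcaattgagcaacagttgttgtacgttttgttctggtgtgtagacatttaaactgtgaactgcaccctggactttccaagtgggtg
Bcl3, chr7:19816449-19816608, 6226 bp from the start site: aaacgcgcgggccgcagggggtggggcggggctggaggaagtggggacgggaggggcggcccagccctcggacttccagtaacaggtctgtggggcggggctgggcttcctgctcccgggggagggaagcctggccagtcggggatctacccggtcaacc
Tnfaip3, chr10:19078005-19078164, -62675 bp from the start site: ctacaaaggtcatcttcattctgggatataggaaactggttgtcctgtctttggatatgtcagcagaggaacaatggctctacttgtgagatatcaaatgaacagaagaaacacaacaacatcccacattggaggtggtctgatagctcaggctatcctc

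Each deposited p65 peak had a MACS2 score on the −log10 scale (of its p or of its q), and the scores of all peaks of a gene were added to a gene score. This score rises with the number of reads in a library as well as with binding, and among the genes bound in every sample its median was higher with LPS, by 1.63 on the log2 scale in BMDMs without IL-4 and by 2.29 in BMDMs pretreated with IL-4. Differences are therefore given in 2 ways, relative to this shared median (centred) and on the scores as they stand (uncentred), with limma's moderated test and Benjamini-Hochberg adjustment over all 12312 genes tested. Adjusted p-values up to 0.05 are called changes. An exact permutation test of 2 against 2 samples cannot give a p-value under 0.333, so the calls rest on the spread shared over all genes.

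On the uncentred scale, the p65 scores of Nfkb1, Rel and Nfkbiz rose the most with LPS among the members. The shared median itself rose by 1.63 without and 2.29 after IL-4. Nfkb1, the gene for the precursor of p50, had scores of 89.4 and 91.5 in ctrl/ctrl, 46.1 and 32.1 in IL-4 PT/ctrl, 384.7 and 414.2 in ctrl/LPS and 508.5 and 546.7 in IL-4 PT/LPS. All 4 LPS samples lay above all samples without LPS, and the samples with IL-4 alone were the lowest. Its response to LPS was 2.14 ± 0.25 (SE, uncentred log2 difference, n = 2 each, limma adjusted p = 0.00117) without IL-4 and 3.78 ± 0.25 (limma adjusted p = 0.000116) after IL-4, and centred it was 0.50 (limma adjusted p = 0.162) and 1.49 (limma adjusted p = 0.00872). With the highest peak in place of the sum, the centred response after IL-4 was 0.66 and not called (limma adjusted p = 0.0776). Rel, the gene for c-Rel, had 28.1 and 38.8 in ctrl/ctrl, 79.1 and 55.7 in IL-4 PT/ctrl, 244.8 and 258.0 in ctrl/LPS and 342.9 and 336.5 in IL-4 PT/LPS. The 4 groups did not overlap. Its response to LPS without IL-4 was 1.29 ± 0.27 centred (limma adjusted p = 0.0160) and 2.93 uncentred (limma adjusted p = 0.000595), the single member that rose on both scales in that comparison. Nfkbiz had 201.1 and 207.2 in ctrl/ctrl, 120.8 and 102.7 in IL-4 PT/ctrl, 692.3 and 712.1 in ctrl/LPS and 695.8 and 781.1 in IL-4 PT/LPS. IL-4 alone gave the lowest values, and the 2 LPS groups overlapped. Its uncentred responses were 1.78 and 2.73 (limma adjusted p = 0.00119 and 0.000174), and its centred ones, 0.14 and 0.44, were not called.

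Tnfaip3 and Nfkbia were bound strongly before LPS. On the uncentred scale both rose by less than the shared median, a shortfall that was called for Tnfaip3 alone. Tnfaip3 had the highest p65 score of all members in ctrl/ctrl, 395.2 and 413.0, with 389.0 and 360.4 in IL-4 PT/ctrl, 741.1 and 754.5 in ctrl/LPS and 1059 and 1141 in IL-4 PT/LPS. The untreated and IL-4 samples lay next to each other and both LPS groups lay above them. Its response to LPS without IL-4 was 0.89 ± 0.20 uncentred (limma adjusted p = 0.0120) and -0.75 ± 0.21 centred (limma adjusted p = 0.0375), so it rose, but by less than the shared median. Nfkbia had 152.0 and 115.8 in ctrl/ctrl, 149.5 and 160.5 in IL-4 PT/ctrl, 275.4 and 260.9 in ctrl/LPS and 412.6 and 441.0 in IL-4 PT/LPS. Again the 2 groups with LPS lay above those without, and IL-4 PT/LPS was the highest. The uncentred response was 1.02 (limma adjusted p = 0.0127) without IL-4 and 1.46 (limma adjusted p = 0.00217) after it, and neither centred value was called.

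The remaining 5 members scored at most 154.3 in ctrl/LPS, below the other 5. Bcl3 had 91.0 and 95.4 in ctrl/ctrl, 68.9 and 73.4 in IL-4 PT/ctrl, 130.7 and 154.3 in ctrl/LPS and 92.1 and 111.5 in IL-4 PT/LPS. It was the member whose p65 score under LPS was lower with IL-4 than without, by -0.99 ± 0.23 centred (limma adjusted p = 0.0440), although the uncentred value of -0.49 was not called (limma adjusted p = 0.195). The centred call was lost with any 1 of the 8 samples left out (limma adjusted p = 0.0535 to 0.287), and also with the 4 samples compared alone (0.0654), the highest peak in place of the sum (0.116) and a peak required in 1 or in every sample (0.0623 and 0.0825). Nfkb2, the gene for the precursor of p52, had 77.4 and 84.9 in ctrl/ctrl and 99.2 and 115.7 in ctrl/LPS, which did not overlap. Rela went from 50.3 and 41.0 to 82.5 and 84.0, an uncentred response of 0.87 (limma adjusted p = 0.0245). Nfkbie had 39.7 and 54.6 in ctrl/ctrl and 69.9 and 68.5 in ctrl/LPS. Relb had 27.7 and 43.0 in ctrl/ctrl and 39.7 and 50.1 in ctrl/LPS, and these values overlapped. After IL-4 the uncentred responses of these 5 to LPS were 0.51 (Bcl3), 1.08 (Nfkb2), 1.3 (Rela), 0.96 (Nfkbie) and 0.96 (Relb).

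In all, centring decided the sign of most calls. For LPS without IL-4, 1 of 10 members (Rel) rose and 5 fell (Bcl3, Nfkb2, Nfkbie, Relb, Tnfaip3) relative to the shared median, against 19.1% and 16.0% of all genes tested, and uncentred 6 rose and 0 fell, against 50.6% and 0.983%. None of the 5 had a lower mean score after LPS, and their centred differences were -0.75 to -1.27. For LPS after IL-4, 1 rose (Nfkb1) and 6 fell (Bcl3, Nfkb2, Nfkbie, Rela, Relb, Tnfaip3), against 18.2% and 9.58% of all genes, and uncentred 9 rose and 0 fell, against 71.8% and 0.406%. The members' median centred difference was -0.758 against -0.045 for all genes without IL-4, and -0.907 against 0.185 after IL-4. For IL-4 without LPS no member was called by limma, while 3 had an unadjusted p under 0.05, against 3.82% of all genes called higher and 2.14% lower (5.96% in all). For IL-4 under LPS 0 rose and 1 fell (Bcl3), against 10.3% and 2.19%. In the test of whether IL-4 changed the response to LPS, 0 members were called (2 at an unadjusted p under 0.05; 7.42% of all genes called, 4.99% positive and 2.44% negative), and uncentred 1 was called, Nfkb1, at 1.63 ± 0.35 (limma adjusted p = 0.0365, against 13.5%). With 1 of the 8 samples left out, 1 to 6 members were called in either response to LPS: 1 without ctrl/LPS replicate 1 and 2 without ctrl/ctrl replicate 2 in the response without IL-4, and 1 without either IL-4 PT/LPS sample in the response after it. These comparisons share their ctrl/ctrl, ctrl/LPS or IL-4 PT samples and are not independent of each other.

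**Figure D1:**
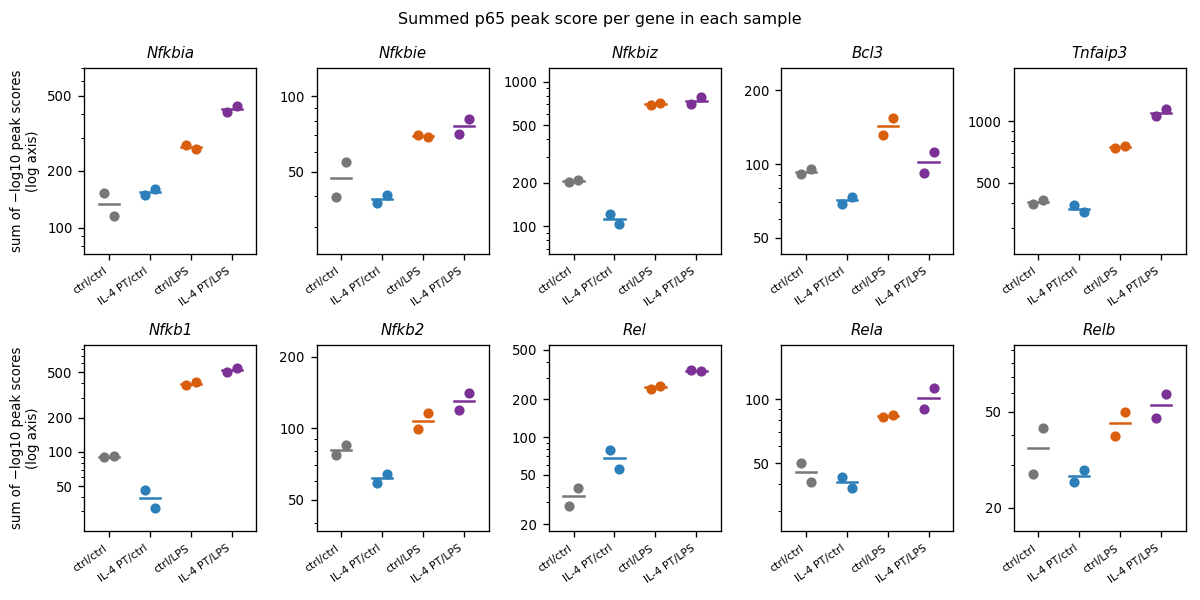
Sum of the p65 peak scores of each of the 10 genes (log axis, −log10 units) in the 2 samples of each of the 4 groups; each point is a sample and the lines are group means. Rel goes from 28.1 and 38.8 in ctrl/ctrl to 244.8 and 258.0 in ctrl/LPS, while Bcl3 with IL-4 PT/LPS, 92.1 and 111.5, lies below ctrl/LPS.

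The sum over a gene covers sites that behaved differently, so p65 peaks of the 8 samples were merged where they overlapped by 1 bp or more. Of 51419 merged regions, 134 held a peak of a member and 116 of these, with a peak in at least 2 samples, were tested among 37564. Member regions near the start site were bound before LPS and distal ones mostly after it, and distal regions of all genes also gained peaks with LPS. Within 1000 bp of a start site 12 to 15 of 16 regions were bound in each of the 8 samples, while beyond 1000 bp 32 and 33 of 118 were bound in ctrl/ctrl, 34 and 30 in IL-4 PT/ctrl, 80 and 78 in ctrl/LPS and 92 and 99 in IL-4 PT/LPS. Over all genes, bound regions beyond 1000 bp went from 7898 and 7716 in ctrl/ctrl to 22382 and 22808 in ctrl/LPS. Those within 1000 bp went from 1696 and 1732 to 3611 and 3660. Regions near the start held 47.5% and 48.6% of the members' p65 score in ctrl/ctrl, 41.4% and 45.5% in IL-4 PT/ctrl, 25.9% and 26.6% in ctrl/LPS and 23.3% and 22.8% in IL-4 PT/LPS. Over all genes the share was 14.9% to 15.8% without LPS and 9.9% to 11% with it, so the members had more of their p65 score at start sites in all 8 samples.

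Of the 116 regions, 44 rose and 20 fell relative to the shared median in response to LPS without IL-4, against 26.9% and 19.8% of all regions tested, and uncentred 57 rose and 3 fell, against 38.3% and 1.25%. Of those that rose, 44 did so on both scales, and 8 of the 20 had no peak in any of the 4 samples compared and were called only through the centring. Among the 15 tested regions near a start site 2 rose and 4 fell (uncentred 4 and 1), and among the 101 distal ones 42 rose and 16 fell (uncentred 53 and 2). After IL-4, 50 rose and 18 fell in response to LPS, against 33.7% and 7.01%, and uncentred 82 rose and 5 fell, against 65.5% and 0.788%. The shared median of regions moved by 1.05 and 1.51 in these comparisons. A region's score is that of its highest peak, and a sample without a peak was set to the floor score, the lowest in the set of p65 lists. In the following, a region is said to rise or fall only where it was called in that direction with and without the centring. Of 187 centred calls at regions named here, 38 changed sign with a floor 4 times as high and 24 with the upper 50% of peaks alone, and each is named in the closing section.

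At Nfkb1, 6 of 19 tested regions rose with LPS without IL-4: those at 51163, 1664, -22324, -26506, -28548 and -38130 bp from the start site. The region at 51163 bp, whose window is shown above, had no peak in the 4 samples without LPS and scores of 101.0 and 89.8 in ctrl/LPS and 120.4 and 118.6 in IL-4 PT/LPS, a centred difference of 5.14 ± 0.18 without IL-4 (limma adjusted p = 0.000298; the samples without a peak were set to the floor score). The region at 20800 bp was the highest of the gene in both ctrl/ctrl and all 4 LPS samples, with 34.6 and 39.2 in ctrl/ctrl, 15.5 and no peak in IL-4 PT/ctrl, 132.7 and 156.9 in ctrl/LPS and 135.0 and 136.3 in IL-4 PT/LPS. All LPS samples lay well above those without LPS. Its centred difference was 0.92 ± 1.06 without IL-4, not called (limma adjusted p = 0.544), and 3.40 ± 1.06 after IL-4 (limma adjusted p = 0.0494), with IL-4 PT/ctrl replicate 2 set to the floor. All groups of the fit share the spread of a region, so this floored sample also widened the SE of the comparison without IL-4. The region was not called in the test of whether IL-4 changed the response to LPS. The start site itself, at 36 bp, was bound in all 8 samples, with 31.3 and 37.0 in ctrl/ctrl, 26.4 and 23.9 in IL-4 PT/ctrl, 27.4 and 39.0 in ctrl/LPS and 27.6 and 30.9 in IL-4 PT/LPS. The ctrl/ctrl and ctrl/LPS samples overlapped, and both IL-4 PT/ctrl samples lay below all others. The uncentred responses to LPS, -0.06 without and 0.22 after IL-4, were not called (limma adjusted p = 1.0 and 0.433). After IL-4, 13 regions of Nfkb1 rose with LPS: those at 51163, 20800, -22324, -26506, -28548 and -38130 bp, and those at 62433, 53608, 42101, 26942, 21886, 2425 and -2902 bp.

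At Rel, 6 of 9 tested regions rose with LPS without IL-4, at 17631, 16538, 8179, -523, -35015 and -50193 bp, of which those at 17631, -35015 and -50193 bp turned to -0.15, -0.35 and -0.85 with a floor 4 times as high. The promoter region at -523 bp, which covers the κB site shown, went from 8.69 and 9.86 in ctrl/ctrl and 6.15 and 6.36 in IL-4 PT/ctrl to 68.5 and 69.5 in ctrl/LPS and 55.4 and 52.1 in IL-4 PT/LPS. The groups with and without LPS were far apart, and the response was 1.85 ± 0.18 centred (limma adjusted p = 0.00123) and 2.90 uncentred. The intronic region at 16538 bp, with its pair of overlapping κB matches, went from no peak and 8.05 in ctrl/ctrl and 30.6 and 9.48 in IL-4 PT/ctrl to 110.5 and 121.1 in ctrl/LPS and 135.4 and 141.8 in IL-4 PT/LPS. It was the highest region of the gene in all 4 LPS samples (centred 4.11 ± 0.93, limma adjusted p = 0.0162, with ctrl/ctrl replicate 1 at the floor). After IL-4 the regions at 17631, -523 and -35015 bp rose and that at -59540 bp fell.

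At Rela, 1 of 3 tested regions rose, at -769 bp, which had no peak in 3 of the 4 samples without LPS and 7.13 in IL-4 PT/ctrl replicate 2, and reached 44.9 and 50.5 in ctrl/LPS and 58.5 and 63.1 in IL-4 PT/LPS (centred 4.14 ± 0.78, limma adjusted p = 0.00917). Beside it, the region over the start site at -88 bp, in a promoter without a κB match, stayed between 7.20 and 34.9 in all 8 samples, with both ctrl/LPS samples just below both ctrl/ctrl samples. Nfkb2 had 2 tested regions, at -61 and -56 bp of alternative start sites. That at -61 bp, over the κB site shown, had 70.4 and 74.5 in ctrl/ctrl, 53.2 and 50.8 in IL-4 PT/ctrl, 72.8 and 93.6 in ctrl/LPS and 64.2 and 76.0 in IL-4 PT/LPS. It did not differ between ctrl/ctrl and ctrl/LPS on the uncentred scale (0.19 ± 0.19, limma adjusted p = 0.53) and fell behind the shared median (-0.86 ± 0.20, limma adjusted p = 0.0186). That at -56 bp went from 7.02 and 10.4 to 26.4 and 22.1 without IL-4 and from 5.73 and 13.2 to 50.4 and 64.7 after it, which was called uncentred only (1.5 and 2.72, limma adjusted p = 0.0484 and 0.00342). Relb had its main region at -180 bp, with 27.7 and 35.9 in ctrl/ctrl and 39.7 and 46.0 in ctrl/LPS, and none of its 3 tested regions rose. Its second region near a start, at 254 bp, had a peak of 7.1 in ctrl/ctrl replicate 2 and of 4.83 in IL-4 PT/LPS replicate 2 alone.

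Of the inhibitors that hold dimers in the cytoplasm, Nfkbia rose at distal regions and not at its start site without IL-4. Its regions at 42117, 34912, 27604, 26130, 24803 and 18528 bp rose with LPS without IL-4. The files place them in an intron, but they lie outside protein-coding genes in GENCODE vM21. The region at 27604 bp had no peak in the 4 samples without LPS and scores of 23.4 and 32.0 in ctrl/LPS and 43.4 and 50.1 in IL-4 PT/LPS (centred 3.34 ± 0.22, limma adjusted p = 0.000393). The promoter at -167 bp, over the κB site shown, was bound throughout, with 58.1 and 61.2 in ctrl/ctrl, 41.4 and 58.2 in IL-4 PT/ctrl, 65.6 and 89.8 in ctrl/LPS and 124.2 and 112.3 in IL-4 PT/LPS, and its response was called only after IL-4 and uncentred (1.27, limma adjusted p = 0.00672). The region at 853 bp, within the gene, was lower with LPS on both scales: 72.2 and 54.5 in ctrl/ctrl and 52.5 and 47.4 in IL-4 PT/ctrl against 31.2 and 21.5 in ctrl/LPS and 21.5 and 22.2 in IL-4 PT/LPS. All samples with LPS lay below all samples without it (uncentred -1.28 ± 0.25, limma adjusted p = 0.0107, without IL-4). At Nfkbie none of 4 tested regions rose without IL-4, and the promoter at -177 bp had 26.6 and 28.3 in ctrl/ctrl, 34.9 and 37.5 in ctrl/LPS and 25.4 and 37.5 in IL-4 PT/LPS. After IL-4, the regions of Nfkbia at 42117, 34912, 27604, -6469 and -20121 bp rose with LPS, and those at 3791 and 853 bp fell.

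Nfkbiz, the gene for IκBζ, had the widest array of p65 regions, 33 at distances of -14431 to 266769 bp, of which 12 of 31 tested rose with LPS without IL-4 (266769, 232633, 205130, 180976, 134315, 130823, 126649, 88143, 56003, 45635, 43446 and -11364 bp). The last lies in an intron of the neighbouring gene Nxpe3. Its start sites at -346 and -292 bp were bound before LPS, at 58.0 and 76.1 and at 13.9 and 15.1, and had 101.4 and 105.3 and 44.9 and 39.1 in ctrl/LPS. Both were higher in each LPS sample than in any sample without LPS. The region at -292 bp was called uncentred only without IL-4 (1.53, limma adjusted p = 0.0145) and rose on both scales after it (centred 1.26 ± 0.31, limma adjusted p = 0.0223). After IL-4, 14 rose: those at 266769, 232633, 205130, 180976, 134315, 130823, 126649, 67535, 45635, 43446, 32836, 2580, -292 and -11364 bp. The region at 40743 bp, with 4.51 and 7.03 in ctrl/ctrl and no peak elsewhere, fell without IL-4. The distal region at 130823 bp went from no peak to 54.4 and 63.8 without IL-4 and from 6.52 and 3.36 to 63.0 and 63.7 after it. Bcl3 had 1 region that rose, the intronic one at 6226 bp, with no peak and 5.99 in ctrl/ctrl, 7.69 and 4.87 in IL-4 PT/ctrl, 48.8 and 50.2 in ctrl/LPS and 22.8 and 22.0 in IL-4 PT/LPS. IL-4 PT/LPS lay between ctrl/LPS and the samples without LPS, and the centred response without IL-4 was 3.10 ± 0.69 (limma adjusted p = 0.0156). After IL-4 its region at -1572 bp fell, and its sole region near the start, at -955 bp, had a peak of 5.8 in IL-4 PT/ctrl replicate 1 alone.

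At Tnfaip3, the gene for A20, 12 of 26 tested regions rose with LPS without IL-4 and all of them were distal (65306, 62874, 53827, -3868, -11484, -15666, -30795, -32148, -48245, -53122, -54673 and -62675 bp). Those at 62874, -3868 and -15666 bp turned to -0.42, -1.04 and -0.14 relative to the shared median when the floor was set 4 times as high. The region at -62675 bp, shown above, had 5.05 and 4.41 in ctrl/ctrl, no peak in IL-4 PT/ctrl, 98.8 and 88.3 in ctrl/LPS and 99.1 and 100.3 in IL-4 PT/LPS (centred 3.26 ± 0.19 without IL-4, limma adjusted p = 0.000315). The start site at -73 bp had 149.2 and 139.7 in ctrl/ctrl, 124.6 and 115.6 in IL-4 PT/ctrl, 138.2 and 128.8 in ctrl/LPS and 144.4 and 143.4 in IL-4 PT/LPS, the highest score of any member region within 1000 bp of a start site in each of the 8 samples. Both ctrl/LPS samples lay just below both ctrl/ctrl samples, and IL-4 PT/ctrl was the lowest group. The uncentred difference of -0.11 without IL-4 was not called (limma adjusted p = 0.638). The intronic region at 2496 bp, with a κB match in its window, was the opposite of the distal ones: 155.3 and 153.6 in ctrl/ctrl and 124.7 and 136.8 in IL-4 PT/ctrl against 70.1 and 104.9 in ctrl/LPS and 106.2 and 115.0 in IL-4 PT/LPS. All samples with LPS lay below all samples without it (uncentred -0.85 ± 0.23, limma adjusted p = 0.0339, without IL-4). After IL-4 the uncentred difference was -0.24 and was not called (limma adjusted p = 0.389). After IL-4, 14 regions of Tnfaip3 rose with LPS (76648, 65306, 62874, 53827, 28181, -3868, -11484, -15666, -17256, -30795, -48245, -53122, -54673 and -62675 bp) and that at -18472 bp fell.

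**Figure D2:**
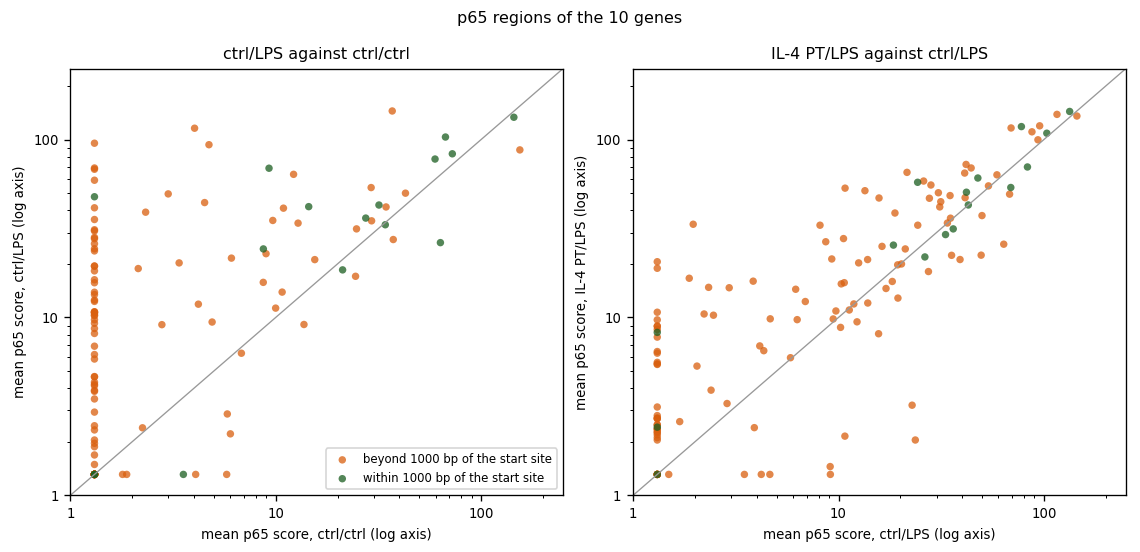
Mean p65 score (−log10 units, log axes) of each of the 134 member regions, in ctrl/LPS against ctrl/ctrl on the left and in IL-4 PT/LPS against ctrl/LPS on the right, with regions within 1000 bp of a start site in green, distal regions in orange, groups without a peak drawn at 1.3, and the line of equal scores. The column at the left edge of the first panel holds regions without a peak in ctrl/ctrl, nearly all of them distal, and the second panel has points on both sides of the line.

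Bound regions differed in what else they held. The κB consensus was present in 300-base windows of 32 of 134 member regions (23.9%), against 12.5% of all 51419 p65 regions. Of the 36 member regions bound in both ctrl/ctrl and both ctrl/LPS samples 17 (47.2%) had it, against 25.9% of all such regions, and of the 42 bound in both ctrl/LPS and neither ctrl/ctrl sample 4 (9.52%) had it, against 10.9%. Among the 27 member regions bound in all 8 samples the count was 16 (59.3%), against 27.9% of all regions bound in all 8. Near a start site 10 of 16 regions held it and beyond 1000 bp 22 of 118. In the untreated BMDMs of the 1 hr IL-4 experiment, p300 peaks overlapped 94.4% of the member regions bound before LPS and 33.3% of those bound only after it, PU.1 peaks 69.4% and 33.3%, H3K27Ac regions 69.4% and 14.3%, and RNAPII-pS5 peaks 83.3% and 11.9%. Over all p65 regions the shares were 91.2% and 62.6% for p300, 77.6% and 45.5% for PU.1, 63.0% and 37.1% for H3K27Ac and 73.0% and 31.6% for RNAPII-pS5. These are descriptions without a test, and regions of the same gene are not independent.

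With IL-4 given before LPS, p65 was higher at some member regions and lower at others, as it was among all regions. Under LPS, 27 of 116 regions were higher and 13 lower with IL-4 than without, against 25.7% and 5.65% of all regions, and uncentred 35 and 10, against 30.2% and 4.39%. On the centred scale the members' share of higher calls lay below that of all regions and their share of lower calls above it, a difference that was not tested. When a peak was required in every sample, 0 were called in place of 40. On both scales 27 were higher and 10 lower. Higher were 8 at Tnfaip3 (68378, 65306, 62874, 51925, 28181, -11484, -15666 and -17256 bp), 8 at Nfkb1 (62433, 53608, 42101, 26942, 21886, 2425, -2902 and -26506 bp), 3 at Nfkbia (42117, -6469 and -20121 bp), 3 at Rel (36149, -35015 and -52392 bp), 3 at Nfkbiz (215317, 87396 and 2580 bp), and those of Bcl3 at -4407 bp and Nfkbie at -675 bp. Lower were 7 at Nfkbiz (266769, 232633, 88143, 56003, 43446, 26458 and -12781 bp), 2 at Nfkb1 (4882 and 1664 bp) and that of Tnfaip3 at -18472 bp.

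The region of Nfkbia at 42117 bp had no peak in ctrl/ctrl, 5.44 and 8.12 in IL-4 PT/ctrl, 12.3 and 14.6 in ctrl/LPS and 43.8 and 59.3 in IL-4 PT/LPS. IL-4 and LPS each gave higher scores than neither, and both together gave the highest (IL-4 under LPS 1.66 ± 0.29 centred, limma adjusted p = 0.00793). The region of Nfkbiz at 2580 bp, within the longer transcript, had no peak without LPS, 3.92 and no peak in ctrl/LPS and 36.5 and 30.3 in IL-4 PT/LPS (3.61 ± 0.51, limma adjusted p = 0.00355, with 1 ctrl/LPS sample at the floor). Moving the other way, that of Nfkbiz at 232633 bp had 13.6 and 10.8 in ctrl/ctrl, no peak in IL-4 PT/ctrl, 62.2 and 65.3 in ctrl/LPS and 23.8 and 27.8 in IL-4 PT/LPS (-1.58 ± 0.20, limma adjusted p = 0.00233). IL-4 samples were the lower ones with and without LPS. That of Nfkb1 at 1664 bp had a peak of 22.1 and 25.2 in ctrl/LPS, 4.09 in 1 IL-4 PT/LPS sample and none elsewhere (-3.62 ± 0.54, limma adjusted p = 0.00438). At Tnfaip3, the regions at -15666 and 28181 bp stood out: the former had no peak without LPS, 6.41 and 15.1 in ctrl/LPS and 41.6 and 65 in IL-4 PT/LPS, and the latter had a peak in IL-4 PT/LPS alone, at 15.1 and 26. At the start site of Tnfaip3, at -73 bp, the difference was -0.16 ± 0.17 and was not called (limma adjusted p = 0.566). Without IL-4 PT/LPS replicate 1 or 2, 7 and 9 of the 40 regions were called.

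Without LPS, IL-4 alone changed few member regions: 5 were higher and 3 lower, against 2.74% and 1.48% of all regions (4.22% in all), and uncentred 4 and 3, against 2.4% and 1.8%. The 4 that were higher on both scales were those of Nfkbia at 42117, 26130 and 18528 bp and of Rel at -35015 bp. The 3 lower ones were those of Nfkbiz at 232633 and 40743 bp and of Tnfaip3 at -62675 bp, the last of which turned to 0.19 with a floor 4 times as high. The region of Nfkbia at 18528 bp had no peak in ctrl/ctrl, 12.5 and 17.7 in IL-4 PT/ctrl, 37.8 and 44.9 in ctrl/LPS and 47.4 and 46.9 in IL-4 PT/LPS, so IL-4 alone lay between untreated and LPS (3.70 ± 0.26 centred, limma adjusted p = 0.00419). In the test of whether IL-4 changed the response to LPS, 17 regions were positive and 9 negative, against 17.7% and 5.56% of all regions, and uncentred 23 and 7, against 23.5% and 4.13%. Their values are given in the closing section.

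**Figure D3:**
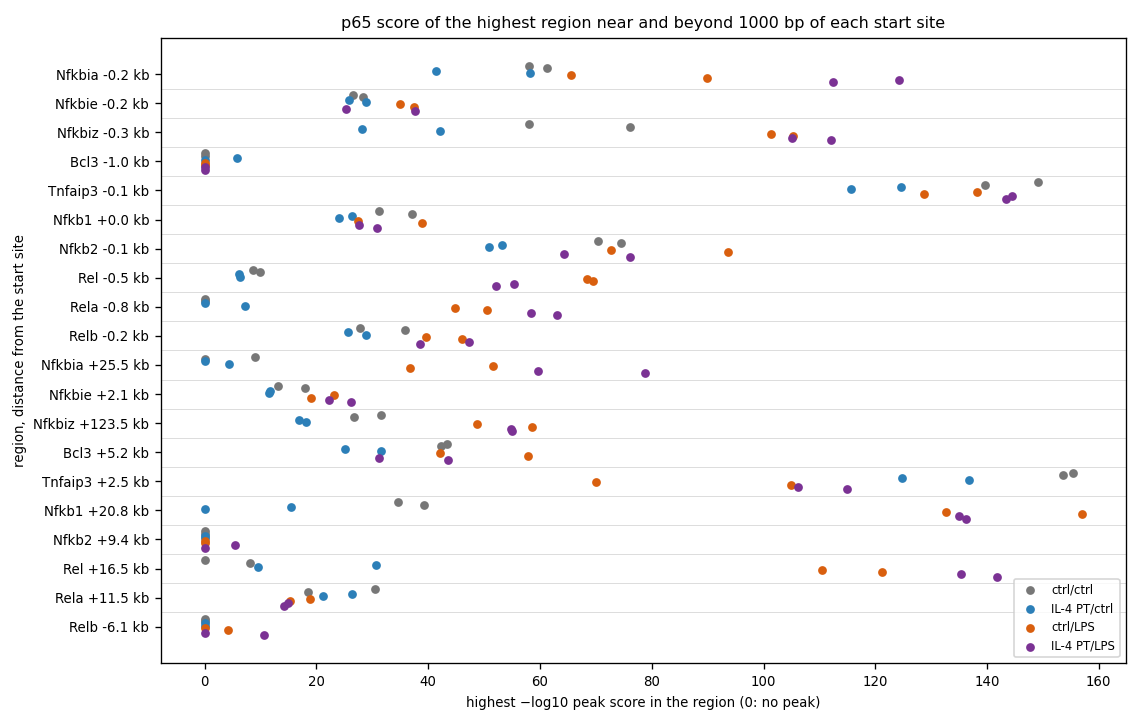
Highest p65 peak score (−log10 units, 0 where there was no peak) of 20 member regions in each of the 8 samples, for each gene the region within 1000 bp of a start site and the region beyond it with the highest mean over the samples, named by gene and distance from the start site; each point is a sample, coloured by group. The region of Nfkb1 at 20800 bp lies at 132.7 to 156.9 with LPS and at most at 39.2 without, that of Tnfaip3 at -73 bp stays between 115.6 and 149.2, and that of Tnfaip3 at 2496 bp is lower with LPS.

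RNAPII phosphorylated on serine 5, the form found at initiation and early elongation, was scored in the same way. With LPS and no IL-4, 3 of 10 members rose, Rel, Tnfaip3 and Nfkb2, and 0 fell, against 8.3% and 17.1% of 12477 genes, and 0 were called without either ctrl/LPS sample, 1 without either ctrl/ctrl sample and 2 without any 1 of the others. The members' median difference was 0.963, against -0.34 for all genes, and the shared median used for centring moved by -0.32 without and by -0.12 after IL-4. Tnfaip3 had 108.5 and 97.2 in ctrl/ctrl, 94.6 and 126.0 in IL-4 PT/ctrl, 191.7 and 217.7 in ctrl/LPS and 241.1 and 223.5 in IL-4 PT/LPS. All samples with LPS lay above those without (1.32 ± 0.27, limma adjusted p = 0.0173). Its peaks were mostly between genes: a region at -62327 bp, over the distal p65 region at -62675 bp, had no RNAPII-pS5 peak without LPS and 22.2, 32.3, 24.3 and 19.5 in the 4 LPS samples. With peaks between genes left out, the response of Tnfaip3 without IL-4 was 0.89 and not called (limma adjusted p = 0.328), and that after IL-4 turned to -0.89. With the highest peak in place of the sum, the response without IL-4 was 0.86 and not called (limma adjusted p = 0.0608). Rel had 12.1 and 25.8 in ctrl/ctrl, 21.3 and 27.6 in IL-4 PT/ctrl, 45.6 and 44.9 in ctrl/LPS and 82.1 and 80.3 in IL-4 PT/LPS. The LPS groups did not overlap with the others (1.68 ± 0.43, limma adjusted p = 0.0349), and the main peak, at 1064 bp in the gene body, went from 12.1 and 9.53 to 26.6 and 19.7. The call of Rel was lost without centring (1.36, limma adjusted p = 0.051) and with the 4 samples compared alone (1.71, limma adjusted p = 0.0731). Nfkb2 went from 40.0 and 26.8 to 65.3 and 64.2 (1.31 ± 0.28, limma adjusted p = 0.0203). The difference lay in a peak annotated to it at 8639 bp from the start site, with 15.5 and 9.73 in ctrl/ctrl and 43.7 and 45.9 in ctrl/LPS. Its promoter peak at -267 bp had 18.3 and 17.1 in ctrl/ctrl and 21.6 and 18.3 in ctrl/LPS.

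After IL-4, RNAPII-pS5 rose with LPS at 6 of 10 members, Nfkb1, Nfkbie, Nfkbiz, Rel, Relb and Tnfaip3, and fell at 0, against 7.02% and 13.5% of all genes. With the highest peak in place of the sum, Nfkbiz (0.15, limma adjusted p = 0.808) and Tnfaip3 (0.95, limma adjusted p = 0.053) were not called. With the 4 samples compared alone, Nfkb1 (3.95, limma adjusted p = 0.0593) and Tnfaip3 (1.25, limma adjusted p = 0.0562) were not called. Nfkb1 also lost its call without peaks between genes (3.28, limma adjusted p = 0.0633). With 1 sample left out 1 to 6 were called, 1 or 2 of them without any of the IL-4 PT samples. For IL-4 without LPS 2 members were called lower, Nfkbie and Nfkbiz, and 0 higher, against 3.53% and 5.13%. Both calls were lost without any 1 of the ctrl/ctrl or IL-4 PT/ctrl samples, with the 4 samples compared alone (limma adjusted p = 0.069 and 0.0863) and with the highest peak in place of the sum (-0.76 and -0.54, limma adjusted p = 0.242 and 0.439). Nfkbiz had 204.4 and 201.8 in ctrl/ctrl, 82.5 and 88.4 in IL-4 PT/ctrl, 218.8 and 239.2 in ctrl/LPS and 166.5 and 175.2 in IL-4 PT/LPS. IL-4 alone gave the lowest values by far (-1.32 ± 0.25, limma adjusted p = 0.0275). Nfkbie, the gene for IκBε, had 10.4 and 12.4 in ctrl/ctrl, 4.04 and 3.61 in IL-4 PT/ctrl, 16.8 and 13.1 in ctrl/LPS and 22.8 and 18.8 in IL-4 PT/LPS. It was lower with IL-4 without LPS (-1.65 ± 0.31, limma adjusted p = 0.0271), and it rose with LPS after IL-4 by 2.55 ± 0.31 (limma adjusted p = 0.00355). With the upper 50% of peaks alone, its difference with IL-4 without LPS was -0.04 and not called (limma adjusted p = 0.958). Nfkb1 had 4.83 and 17.2 in ctrl/ctrl, 7.40 and no peak in IL-4 PT/ctrl, 37.3 and 21.9 in ctrl/LPS and 46.3 and 43.8 in IL-4 PT/LPS. Its response after IL-4, 3.90 ± 0.94 (limma adjusted p = 0.0332), rests in part on the floor score given to IL-4 PT/ctrl replicate 2. Relb, with 15.3 and 8.34, 3.84 and 4.12, 28.0 and 15.6, and 21.2 and 18.5 in the same order of groups, rose by 2.43 ± 0.42 after IL-4 (limma adjusted p = 0.0113). Under LPS, 0 members differed with IL-4 (1 at an unadjusted p under 0.05; 10% of all genes called), and 0 differed in the test of the change in response (1 at an unadjusted p under 0.05; 6.11%). The members not called in the response without IL-4 but called after it are thus not shown to respond differently. Nfkbia, Bcl3 and Rela were not called in any comparison of RNAPII-pS5. Their scores were 74.6 to 104.9, 38.6 to 71.0 and 47.5 to 75.4 over the 8 samples.

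RNAPII-pS2, the form of elongating polymerase, gave fewer calls, with shared medians that moved by 0.22 and 0.34 with LPS. With LPS and no IL-4, 1 member rose, Tnfaip3, and 0 fell, against 11.8% and 14.9% of 13663 genes. It went from 208.1 and 179.4 to 399.8 and 409.2 without IL-4 and from 187.2 and 196.2 to 366.0 and 441.9 after it, with no overlap between samples with and without LPS (0.84 ± 0.23, limma adjusted p = 0.0411, without IL-4). Without the peaks between genes this value turned to -1.35, and the call was lost with any 1 of the 8 samples left out (limma adjusted p = 0.0523 to 0.139). After IL-4 3 rose, Nfkb1, Nfkb2 and Nfkbie, and 0 fell, against 9.65% and 10.7%. With 1 sample left out 0 to 2 were called, and 0 without either IL-4 PT/LPS sample or IL-4 PT/ctrl replicate 1. Nfkb1 had 57.7 and 59.1 in ctrl/ctrl, 16.1 and 24.6 in IL-4 PT/ctrl, 102.7 and 67.8 in ctrl/LPS and 80.5 and 81.4 in IL-4 PT/LPS. It was lowest with IL-4 alone, where it was the 1 member called lower (-1.48 ± 0.28, limma adjusted p = 0.0230; 0 higher, against 6.54% and 7.9%). This call was lost without IL-4 PT/ctrl replicate 1 or either ctrl/ctrl sample. It was also lost with the highest peak in place of the sum (-0.7, limma adjusted p = 0.156) and without peaks between genes (-0.88, limma adjusted p = 0.143). The same held with the 4 samples compared alone (-1.45, limma adjusted p = 0.0564). For IL-4 under LPS 0 members were called (1 at an unadjusted p under 0.05; 8.46% of all genes), and for the change in response 0 (2; 6.38%).

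**Figure D4:**
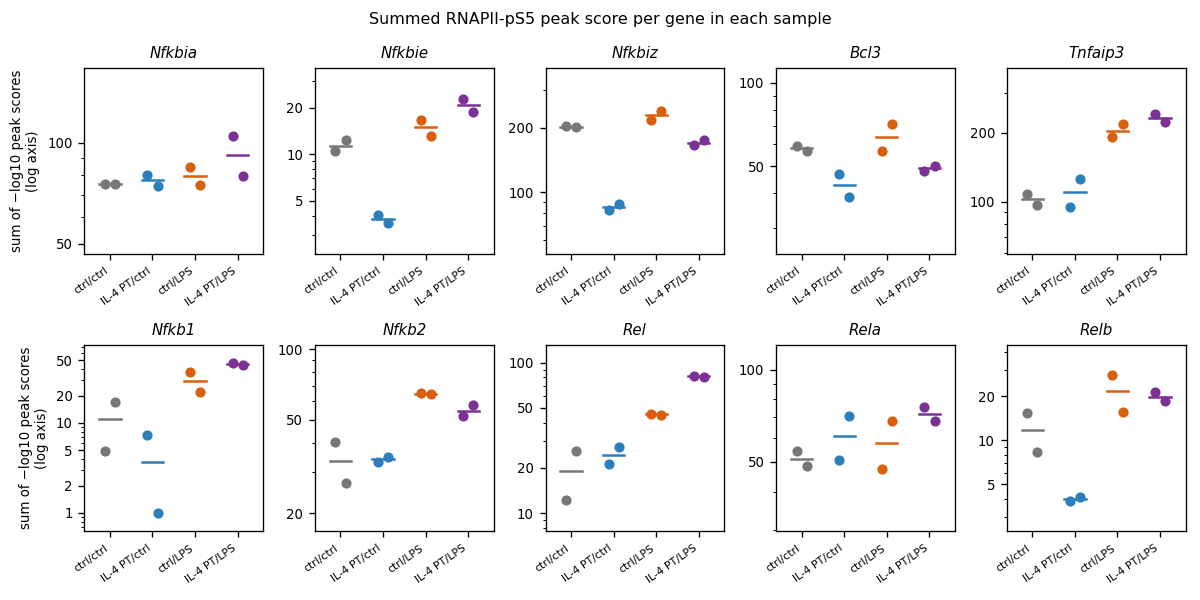
Sum of the RNAPII-pS5 peak scores of each of the 10 genes (log axis, −log10 units) in the 2 samples of each group of the pretreatment experiment; points are samples, lines are group means and a sample without a peak is drawn at 1. Nfkbiz and Nfkbie are lowest in IL-4 PT/ctrl, at 82.5 and 88.4 and at 4.04 and 3.61, and Rel is highest in IL-4 PT/LPS, at 82.1 and 80.3.

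After 1 hr of IL-4, a change in histone acetylation was called at 4 members, against 32.8% of all genes tested in either direction. Whether the members differed from all genes in this was not tested. H3K27Ac, the mark of active promoters and enhancers, was deposited as a HOMER signal over regions called in each sample, in which 1 tag is worth 0.307 to 0.347, and the signals of a gene's regions were added. Rel rose and Nfkbiz, Nfkb1 and Bcl3 fell, against 14.8% and 18.1% of 13035 genes. Rel had 784.0 and 769.4 in ctrl and 1326 and 1302 in IL-4, a difference of 0.77 ± 0.05 (limma adjusted p = 0.00505). The rise was at several places: its region at 550 bp went from 441.4 and 422.7 to 707.9 and 681.8, and that at 8385 bp from 47.3 and 49.0 to 188.1 and 192.3. Further upstream, a region at -52307 bp had 209.7 and 205.3 in ctrl alone and a region at -50702 bp 333.1 and 341.2 in IL-4 alone, so the called region moved between conditions. Over the latter region p300, the acetyltransferase that lays this mark, went at -50251 bp from 5.67 and 22.6 to 162.0 and 155.7, and at 8168 bp from 16.9 and 70.3 to 233.8 and 246.3. The lower ctrl value of each pair is from ctrl replicate 1, the list with fewer peaks, and the IL-4 samples were also higher than ctrl replicate 2. These single peaks were not tested. PU.1 had peaks at -50213 bp in all samples, 116.1 and 63.1 in ctrl and 130.0 and 166.0 in IL-4, and HDAC3 had a peak at -50209 bp only with IL-4, at 19.8 and 8.1.

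Nfkbiz had H3K27Ac signals of 1413 and 1508 in ctrl and 818.5 and 861.6 in IL-4 (-0.79 ± 0.07, limma adjusted p = 0.00834). The signal was lower in both IL-4 samples over regions from the promoter at -163 bp, with 210.6 and 210.6 in ctrl and 158.6 and 152.7 in IL-4, to the distal regions at 26090 bp, with 145.8 and 145.9 against 58.3 and 59.7, and at 198700 bp, with 202.0 and 190.6 against 99.3 and 121.2. Only the region at 185285 bp was nearly level, at 78.3 and 76.2 against 75.2 and 73.2, among those over 50 in ctrl with a region called in all 4 samples. Nfkb1 had 744.9 and 770.4 in ctrl and 486.4 and 485.6 in IL-4 (-0.63 ± 0.05, limma adjusted p = 0.00788). Part of this comes from its region at 853 bp, with 125.2 and 138.7 in ctrl and no called region in IL-4. With the highest region alone the difference was -0.35. Bcl3 went from 1074 and 1082 to 881.5 and 854.7 (-0.31 ± 0.05, limma adjusted p = 0.0253), and this call was lost with any 1 of the 4 samples left out. With 1 sample left out 1 to 3 members were called, and Rel alone was called without IL-4 replicate 1 or without ctrl replicate 2. Tnfaip3 had 1582 and 1523 in ctrl and 1575 and 1646 in IL-4, a difference of 0.06 ± 0.06 that was not called. The remaining 5 members, not called, had differences of -0.22 to 0.03.

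With the other antibodies no member was called after 1 hr of IL-4. The shared median moved by 0.86 for p300, 0.29 for PU.1, -0.46 for HDAC1 and 0.42 for HDAC3. For RNAPII-pS5 1.05% of 13481 genes were called, and 1 member had an unadjusted p under 0.05 by limma. For PU.1, p300, HDAC1, HDAC2 and HDAC3 limma called 0.0% of genes, and 0, 3, 1, 0 and 3 members had an unadjusted p under 0.05. For p300, Rel had 181.4 and 554.7 in ctrl and 937.5 and 939.9 in IL-4 (0.71 ± 0.15, limma adjusted p = 0.116; without ctrl replicate 1, 0.75, limma adjusted p = 0.125). Both IL-4 samples lay above both ctrl samples. Nfkbiz had 816.6 and 2103 in ctrl and 1444 and 1455 in IL-4 (-0.71 ± 0.20, limma adjusted p = 0.148; without ctrl replicate 1, -0.55, limma adjusted p = 0.151), where the ctrl values lay on either side. RNAPII-pS5 at Nfkbiz was lower in both IL-4 samples, 189.7 and 168.0 against 340.9 and 254.9 in ctrl, without being called.

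**Figure D5:**
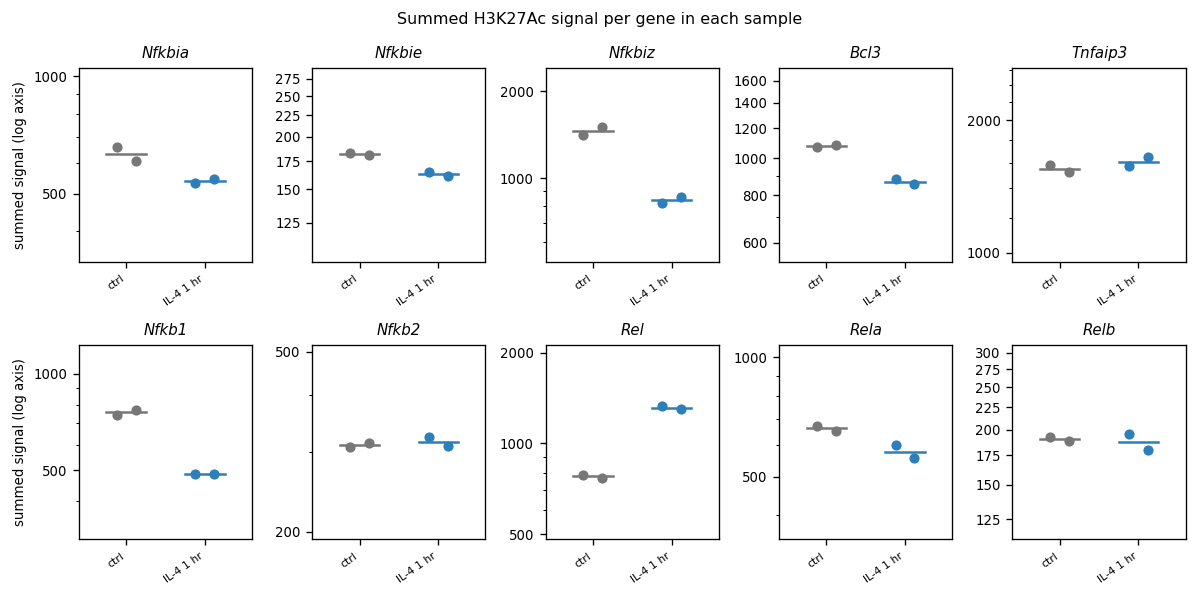
Sum of the H3K27Ac signals of each of the 10 genes in the 2 ctrl and the 2 IL-4 (1 hr) samples (log axis, HOMER signal units); points are samples and lines are group means. Rel is higher in both IL-4 samples, 1326 and 1302 against 784.0 and 769.4, and Nfkbiz and Nfkb1 are lower in both.

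The wider pathway was read from a list of 41 symbols of other NF-κB signalling genes, among them an old and a new symbol of the same gene. For p65 and LPS without IL-4, 7 of 35 tested rose and 4 fell relative to the shared median, against 19.1% and 16% of all genes, and uncentred 25 rose and 0 fell, against 50.6% and 0.983%. The 3 largest rises, as centred differences, were those of Otud7b, a deubiquitinase gene, with 4.02 and no peak in ctrl/ctrl and 60.1 and 48.4 in ctrl/LPS (2.92), of Ikbkb, the gene for IKKβ, with 2.16 and 4.15 against 68.7 and 70.0 (2.89), and of Traf5, an adaptor gene, with no peak against 19.3 and 34.1 (2.65). The 3 largest falls were those of Cyld, a deubiquitinase gene, with 33.6 and 27.9 against 8.20 and 19.1 (-2.93), of Nfkbid, the gene for a further nuclear IκB protein, with 7.68 and 8.36 against 7.01 and 2.40 (-2.61), and of Nfkbib, the gene for IκBβ, with 118.8 and 86.8 against 84.8 and 103.4 (-1.76). Cyld and Nfkbid were lower in both LPS samples on the scores as they stand, while the values of Nfkbib overlapped. For RNAPII-pS5, 7 of 37 rose and 2 fell, against 8.3% and 17.1% of all genes. The largest rises were those of Ripk2 (3.30), Ripk1 (3.0) and Traf1 (2.57), genes for a pair of kinases and an adaptor of receptor signalling, and the falls were those of Tab1 (-2.55) and Nkiras2 (-2.18). For Ripk2 the scores went from 3.71 and 2.82 to 27.9 and 23.2, and for Traf1 from 8.88 and 13.9 to 53.1 and 52.2. Ripk1 had no peak in ctrl/ctrl and 13.2 and 6.43 in ctrl/LPS. The members' own counts for p65, 1 up and 5 down of 10, and for RNAPII-pS5, 3 up and 0 down, stand beside these without a test of the difference.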

How the data were processed

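Peak lists of 56 ChIP-seq samples were used. Per the labels and the study's methods, the authors aligned reads with BWA 0.7.10 and SAMtools 0.1.19 to mm10, called peaks in each sample with MACS2 2.0.10 (H3K27Ac with HOMER 4.2) and annotated them with HOMER. The deposited scores of 52 lists are −log10 p- or q-values from MACS2 (which of them is not given in the sources used here), not scaled for depth. The 4 deposited H3K27Ac lists hold a HOMER signal per region, in which 1 tag is worth 0.307 to 0.347. Reads were not used here, so depth is unknown and no counting error can be given.

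The scores of all peaks of a gene were added, and missing values were set to the lowest score of the set of lists (1.3 to 1.76, for H3K27Ac 9.1). Values were put on the log2 scale and centred on the median of genes with a peak in all samples. Genes that had peaks in 2 or more samples were tested with limma 3.58.1 in R 4.3.3, on all 4 or 8 samples of an antibody, with Benjamini-Hochberg adjustment over all features and a threshold of 0.05. p65 peaks that overlapped by 1 bp or more were merged and tested in the same way. Tables and figures were made with Python 3.11.15, pandas 2.3.3, numpy 2.4.6 and matplotlib 3.10.9. The fit was tested on simulated normal values, with changes set only in features with a peak in all samples. Calls that rest on samples set to the floor were therefore not covered. The labels do not say whether replicates came from separate mice or cultures, so p-values measure only the spread between these samples. Same-numbered samples did not deviate together (correlations of -0.048 to 0.066), so they were not paired. Named were all 10 members, their p65 regions that were called or lay within 1000 bp of a start site, and of the pathway list the 3 largest called rises and falls in the p65 and RNAPII-pS5 response to LPS without IL-4. The members, lists and regions were chosen with earlier results of these data known. Alternatives were the floor, the centring, filters on peaks and genes, the highest peak in place of the sum, the replicate block, fits of 4 samples and leaving out each sample.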

Additional observations from a re-analysis of the deposited data

Results flagged for a closer look

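For each of 26 p65 regions, of 116 tested and against 23.2% of all regions called, the response to LPS differed between BMDMs with and without IL-4 pretreatment by limma's test of the interaction (Benjamini-Hochberg adjusted p up to 0.05 over all regions tested, centred log2 difference of the responses, 2 samples in each of 4 groups). A positive value is a higher difference between LPS and no LPS after IL-4 than without it, also where a score fell without IL-4 and had no peak after it, as at Nfkbiz at 40743 bp. Samples without a peak were set to the floor. At Nfkb1 the values were 2.35 at -2902 bp, -3.81 at 1664 bp, 2.30 at 2425 bp, 2.57 at 21886 bp, 3.35 at 26942 bp, 2.23 at 53608 bp and 1.61 at 62433 bp. At Nfkbia the values were 1.6 at -20121 bp and -3.77 at 18528 bp. At Nfkbie the value was 2.10 at -675 bp. At Nfkbiz the values were -2.11 at -12781 bp, 3.41 at 2580 bp, 1.64 at 40743 bp, -1.42 at 43446 bp, -2.28 at 88143 bp, -2.20 at 130823 bp, 1.55 at 215317 bp, 1.44 at 232633 bp and -1.15 at 266769 bp. At Tnfaip3 the values were 1.48 at -62675 bp, -0.93 at -53122 bp, -2.88 at -18472 bp, 2.10 at -17256 bp, 3.46 at 28181 bp, 2.21 at 51925 bp and 1.56 at 62874 bp. The regions of Nfkbiz at 266769 bp and of Tnfaip3 at -53122 bp lost the call on the uncentred scale. With 1 of the 8 samples left out, 3 to 21 member regions were called in this test. No gene score of the 10 members was called in this test on the centred scale.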

How the results depend on the processing

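Of 28 counts of called members or regions, 21 moved by over 1.5 times in at least 1 alternative other than leaving out a sample, and of 221 values of genes and regions called 61 changed direction in at least 1, while 70 kept direction and call in all of them; the cause was not tested. The scores carry no depth, so a library with more reads gives higher scores, and only the centring allows for it.

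Without centring, the p65 gene values for LPS after IL-4 turned to 0.51 (Bcl3), 1.08 (Nfkb2), 0.96 (Nfkbie), 1.3 (Rela), 0.96 (Relb) and 1.55 (Tnfaip3), and for LPS without IL-4 to 0.61 (Bcl3), 0.40 (Nfkb2), 0.57 (Nfkbie), 0.37 (Relb) and 0.89 (Tnfaip3). The p65 regions that turned for LPS without IL-4 were Nfkb2 0.19 at -61 bp. The p65 regions that turned for LPS after IL-4 were Nfkb1 0.22 at 36 bp, Nfkb2 0.43 at -61 bp, Nfkbie 0.18 at -177 bp, Relb 0.65 at -180 bp, Tnfaip3 0.26 at -73 bp. With peaks between genes left out, Tnfaip3 turned to -1.35 (RNAPII-pS2, LPS without IL-4) and -0.89 (RNAPII-pS5, LPS after IL-4). With a floor 4 times as high, the regions that turned for LPS without IL-4 were Nfkb1 -0.23 at -26506 bp, -0.03 at -28548 bp, Nfkbia -0.21 at 24803 bp, -0.10 at 26130 bp, Nfkbiz -0.16 at 126649 bp, -0.66 at 205130 bp, -0.02 at 56003 bp, -1.04 at 88143 bp, Rel -0.35 at -35015 bp, -0.85 at -50193 bp, -0.15 at 17631 bp, Tnfaip3 -0.14 at -15666 bp, -1.04 at -3868 bp, -0.42 at 62874 bp. For LPS after IL-4 they were Nfkb1 -0.69 at -2902 bp, -0.48 at 21886 bp, -0.75 at 2425 bp, -0.01 at 42101 bp, -0.82 at 53608 bp, Nfkbia -1.44 at -20121 bp, -0.68 at 34912 bp, Nfkbiz -0.47 at 126649 bp, -0.27 at 134315 bp, -0.28 at 205130 bp, -0.06 at 32836 bp, -0.89 at 43446 bp, Rel -0.04 at 17631 bp, Tnfaip3 -0.94 at -17256 bp, -1.11 at -3868 bp, -0.65 at 76648 bp. For IL-4 without LPS they were Tnfaip3 0.19 at -62675 bp. For IL-4 under LPS they were Nfkbia -0.20 at -20121 bp, Nfkbiz -0.10 at 215317 bp. For the interaction they were Nfkbia -0.40 at -20121 bp, Nfkbiz -0.29 at 215317 bp, -0.56 at 232633 bp, -0.25 at 40743 bp, Tnfaip3 -0.37 at -62675 bp. With the upper 50% of peaks, the regions that turned for LPS without IL-4 were Nfkb1 -0.55 at -26506 bp, -0.16 at -28548 bp, Nfkbia -0.31 at 24803 bp, Nfkbiz -0.29 at 126649 bp, -0.90 at 205130 bp, -0.15 at 56003 bp, Rel -0.54 at -35015 bp, -0.35 at 17631 bp, Tnfaip3 -0.27 at -15666 bp, -0.22 at 53827 bp, -0.65 at 62874 bp. For LPS after IL-4 they were Nfkb1 -0.08 at -28548 bp, -0.63 at 21886 bp, -0.16 at 42101 bp, -0.05 at 62433 bp, Nfkbiz -0.10 at -11364 bp, -0.62 at 126649 bp, -0.70 at 134315 bp, -0.43 at 205130 bp, -0.21 at 32836 bp, Rel -0.19 at 17631 bp. For IL-4 without LPS they were Tnfaip3 0.30 at -62675 bp. For the interaction they were Nfkbiz -0.86 at 232633 bp, Tnfaip3 -0.39 at -62675 bp.

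Counts of called members moved as follows. For p65, LPS without IL-4 went from 6 to 3 with the 4 samples compared alone. IL-4 under LPS went from 1 to 2 with the higher floor and to 0 with the highest peak of a gene, without centring, with the 4 samples alone, and with a peak needed in 1 or in every sample. IL-4 without LPS went from 0 to 3 with the higher floor, 1 with the highest peak, 2 with a peak in every sample and 1 with the upper 50% of peaks, and the interaction from 0 to 1 with the highest peak and 1 without centring. For RNAPII-pS5, LPS without IL-4 went from 3 to 5 with the highest peak and 6 with the upper 50% of peaks, IL-4 without LPS from 2 to 0 with the highest peak, 0 with the 4 samples, 1 without peaks between genes and 1 with the upper 50%, IL-4 under LPS from 0 to 1 with the higher floor and the interaction from 0 to 1 without centring. For RNAPII-pS2, LPS without IL-4 went from 1 to 3 with the higher floor, 2 with the highest peak, 3 without centring, 0 with the 4 samples, 0 with a peak in 1 sample, 2 without peaks between genes and 2 with the upper 50%. LPS after IL-4 went from 3 to 1 with the 4 samples. IL-4 without LPS went from 1 to 3 with the higher floor, 0 with the 4 samples, 3 with a peak in every sample, 2 without peaks between genes and 5 with the upper 50%, with which IL-4 under LPS went from 0 to 2 and the interaction from 0 to 1. After 1 hr of IL-4, RNAPII-pS2 went from 0 to 3 with the higher floor and 2 with the upper 50%, and HDAC3 from 0 to 1 with the upper 50%. Of the p65 regions, with a peak in every sample 10 of 64 remained in number for LPS without IL-4, 17 of 68 for LPS after IL-4, 1 of 8 for IL-4 without LPS, 0 of 40 for IL-4 under LPS and 0 of 26 for the interaction. IL-4 under LPS gave 20 with the 4 samples, IL-4 without LPS 4 with the higher floor and 4 with the upper 50%, and the interaction 17 with the upper 50%.

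With the replicate number as a block, the counts moved from 1 to 0 for RNAPII-pS2 and LPS without IL-4, from 2 to 0 for RNAPII-pS5 and IL-4 without LPS, from 6 to 3 for RNAPII-pS5 and LPS after IL-4 and from 1 to 0 for p65 and IL-4 under LPS. Other counts stayed within 1.5 times, and 32 of the 221 values changed their call. The numbers did not pair the samples (correlations of -0.048 to 0.066).

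With 1 sample left out, 110 of the 221 values lost their call in at least 1 fit and 0 changed direction; a group left with 1 sample was assumed to vary like the others. The counts ranged from 1 to 3 for H3K27Ac, from 1 to 6 for p65 in either response to LPS, from 0 to 0 for p65 and IL-4 under LPS, from 0 to 2 and 1 to 6 for RNAPII-pS5 and LPS without and after IL-4, from 0 to 2 for RNAPII-pS5 and IL-4 without LPS, from 0 to 0 and 0 to 2 for RNAPII-pS2 and LPS without and after IL-4, and from 0 to 1 for RNAPII-pS2 and IL-4 without LPS. For p65 regions they ranged from 45 to 61 and 47 to 67 for LPS without and after IL-4, from 2 to 8 for IL-4 without LPS, from 7 to 35 for IL-4 under LPS and from 3 to 21 for the interaction. All other counts stayed at 0.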
